A study of Mus musculus with 2 samples.

Results

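Matrix metalloproteinases cut the collagens, proteoglycans and other proteins of the extracellular matrix, and the tissue inhibitors of metalloproteinases (TIMPs) block them. The 10 genes described here, Mmp2, Mmp3, Mmp9, Mmp11, Mmp13, Mmp14, Mmp16, Timp1, Timp2 and Timp3, were chosen by name out of the 24866 genes of the deposited count table. This choice was made with earlier results of these data known. All 10 are in the table, and they were followed in 653 of its 658 single-cell wells. The cells came from the femurs of 2 littermate mice aged 6 days, strain C57/B6 and genotype CTSK-cre+ mTMG, which every well shares. Cre is driven by the cathepsin K (Ctsk) promoter, and cells in which it has acted, with their descendants, carry membrane GFP. Femurs were broken up mechanically and enzymatically, stained, and sorted as GFP-positive single cells, animal 1 into plate 47 and animal 2 into plate 48, so that animal and plate cannot be told apart. All wells analysed here were sorted as reporter-positive, and the comparisons are between kinds of cells inside the same animals.

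Most metalloproteinases leave the cell as inactive precursors whose prodomain has to be removed. Mmp14 stays in the membrane, where together with Timp2 it binds and activates the precursor of the gelatinase Mmp2, so that an inhibitor takes part in switching a protease on. In growing bone, the collagenase Mmp13 is known from hypertrophic chondrocytes and osteoblasts and the gelatinase Mmp9 from osteoclasts, and mice that lack Mmp14 have severe skeletal defects.

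Wells were kept with 500 or more genes seen and mitochondrial counts of 20% or less, 318 of 319 in animal 1 and 335 of 339 in animal 2. Kept wells held 9767 to 675621 counts, with medians of 101207 in animal 1 and 119126 in animal 2. Whether molecular identifiers were collapsed is not given in the sources used here, the median nonzero value was 18, and a count is not read as a molecule. The intervals given for shares cover the sampling of wells within 1 animal only, and not the spread between animals. A gene was called seen in a well at 5 or more counts. Col2a1, the main cartilage collagen, reached that limit in 86.1% of wells, across all groups, and whether free transcript contributed was not tested. Cells were grouped by the marker list on which they scored highest, without reading the 10 genes. The lists are periosteal progenitor (Ptn, Postn, Aspn, Ogn and others), tendon and ligament (Tnmd, Scx, Fmod), Mfap5 Cd34 fibroblast, articular and synovial (Prg4, Cytl1), cartilage (Col2a1, Acan), bone-forming (Ibsp, Bglap, Alpl) and mural (Rgs5, Acta2, Myh11). A group is a range of scores and not a proven type. The best list needed a lead of 0.25, and 0 to 9 wells per group and animal had a lead below 0.35. With groups formed from clusters of the marker genes instead, 38 of 71 periosteal-list and 23 of 37 articular-list wells kept their group. Of the cartilage-list, fibroblast-list and tendon-list wells, 153 of 169, 85 of 85 and 68 of 69 did. With a lead of 0.5, the wells kept were 46 periosteal-list, 18 articular-list, 133 cartilage-list, 60 fibroblast-list and 54 tendon-list. In animals 1 and 2 the groups held 47 and 24 periosteal-list, 39 and 30 tendon-list, 33 and 52 fibroblast-list, 14 and 23 articular-list, 78 and 91 cartilage-list, 12 and 8 bone-list and 18 and 5 mural-list wells. The remaining 77 and 102 wells stayed unassigned. The labels call the cells mesenchymal, and of the macrophage, neutrophil, endothelial, erythroid, lymphoid and skeletal muscle lists 0 genes reached 5% of wells. Of 8 osteoclast markers 1 did, Nfatc1, in 15.2% of wells.

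Promoter letters are shown for Mmp13, which was seen in few groups, and for Mmp14 and Timp2, which were seen in all 7 and act together on Mmp2. RefSeq promoters, from 250 bases before to 50 after the gene start on build GRCm38.p6, were matched for 7 of the 10 genes, and Mmp2, Mmp9 and Mmp16 are named only. Capitals mark 4 motifs searched on both strands. The AP-1 letters TGAGTCA are in 5.20% of 32851 promoters of this length. The RUNX letters TGTGGT are in 16.8%. The GC box letters GGGCGG are in 35.7%. The TATA letters TATAAA are in 13.6%.
Mmp13, chr9:7272264-7272563, plus strand: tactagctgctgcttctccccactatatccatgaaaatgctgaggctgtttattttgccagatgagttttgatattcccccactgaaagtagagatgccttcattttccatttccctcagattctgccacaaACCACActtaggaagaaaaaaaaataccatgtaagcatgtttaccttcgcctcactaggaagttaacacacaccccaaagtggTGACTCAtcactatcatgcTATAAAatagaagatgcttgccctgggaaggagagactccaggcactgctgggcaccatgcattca
Mmp14, chr14:54431348-54431647, plus strand: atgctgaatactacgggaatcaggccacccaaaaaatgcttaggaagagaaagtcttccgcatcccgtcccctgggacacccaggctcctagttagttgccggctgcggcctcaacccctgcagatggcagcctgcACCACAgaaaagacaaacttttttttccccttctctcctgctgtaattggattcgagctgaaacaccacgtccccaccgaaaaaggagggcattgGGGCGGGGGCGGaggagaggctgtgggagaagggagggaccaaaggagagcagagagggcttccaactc
Timp2, chr11:118355362-118355661, minus strand: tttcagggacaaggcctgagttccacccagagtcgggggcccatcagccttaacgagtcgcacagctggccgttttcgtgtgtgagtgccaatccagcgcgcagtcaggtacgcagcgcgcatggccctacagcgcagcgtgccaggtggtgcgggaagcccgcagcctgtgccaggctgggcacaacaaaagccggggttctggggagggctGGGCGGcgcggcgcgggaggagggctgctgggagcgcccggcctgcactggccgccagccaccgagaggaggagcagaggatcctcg
The Mmp13 promoter has 1 match each to the RUNX, AP-1 and TATA letters, starting 118, 35 and 16 bases before the gene start, and 0 to the GC box letters. Mmp14 has 1 RUNX match and 2 GC box matches, and Timp2 has 1 GC box match. Of the other matched members, Mmp3 also holds the AP-1 and TATA letters, while Mmp11, Timp1 and Timp3 hold GC box letters and neither of those. Mmp13 is 43.7% G and C and Timp2 68.7%, around a median of 52.7% over all promoters. These matches describe letters and do not show that a factor bound them.

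On build mm10, in the GENCODE annotation, Mmp2 lies at chr8:92827291-92853420, Mmp9 at chr2:164940780-164955850, Mmp14 at chr14:54431612-54445364 and Mmp16 at chr4:17852893-18119145. Mmp13 (chr9:7272514-7283331) and Mmp3 (chr9:7445822-7455975) belong to 1 cluster of metalloproteinase genes, and Mmp11 is at chr10:75923222-75936496. Timp1 is at chrX:20870166-20874735, Timp2 at chr11:118301069-118355740 and Timp3 at chr10:86300372-86349506. Counts are per gene, so exons and isoforms were not resolved.

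Over all wells, 5 of the genes were common and 5 were rare. Timp2 was seen in 415 of 653 wells, Mmp2 in 408, Timp1 in 351, Mmp14 in 208 and Timp3 in 166. Mmp16 was seen in 45 wells, Mmp13 in 31, Mmp9 and Mmp11 in 11 each and Mmp3 in 3. At the limit itself the choice mattered little: 0 to 8 wells per gene stood at exactly 5 counts and 0 to 10 at 4. Wells without any of the 10 genes made up 5.97% of animal 1 and 7.46% of animal 2. The plot of detection shares gives all of these by group.

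**Figure D1:**
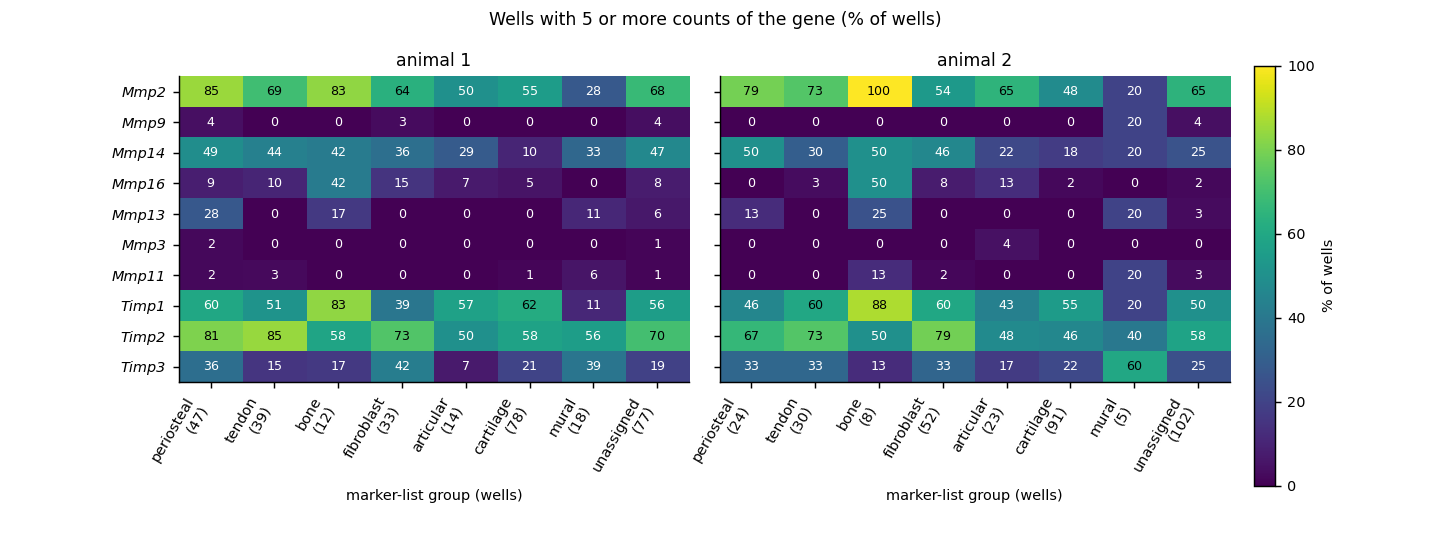
Share of wells (percent, written in each cell) with 5 or more counts of each gene, by marker-list group (columns, wells in brackets) and animal (panels). Mmp2 and Timp2 fill most columns, and Mmp13 stands at 0 in the tendon, fibroblast, articular and cartilage columns of both animals.

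Each group with at least 10 cells in each animal was set against the average of the remaining 4 such groups. Counts were summed per animal and group and scaled to the total of each sum (CPM), and edgeR's quasi-likelihood test was fitted on all 12463 genes with animal as a block and Benjamini-Hochberg adjustment. CPM here are not divided by gene length, so they are compared between groups for 1 gene and not between genes. In periosteal-list wells 2 of the 10 genes were called, Mmp2 and Mmp13, both higher, against 0.144% of all genes tested in either direction and 0.112% higher. The 10 genes were chosen with earlier results of these data known, so setting them beside all genes is a description only. In the tendon-list (0.193% of all genes called), fibroblast-list (1.27%), articular-list (0.168%) and cartilage-list (0.65%) comparisons 0 of the 10 were called by edgeR. At an unadjusted p under 0.05 there were 2 in tendon-list (8.66% of all genes), 2 in fibroblast-list (1500 of 12463 genes), 4 in articular-list (10.9%) and 3 in cartilage-list wells (11.1%). DESeq2 called 3 in periosteal-list (2.96% of all genes with an adjusted p), 2 in tendon-list (3.78%), 1 in fibroblast-list (6.0%), 2 in articular-list (7.16%) and 3 in cartilage-list wells (3.33%). DESeq2 gave no adjusted p for 2 of the 10 in each comparison. Over all genes, 47 of 81 calls in cartilage-list wells were higher, and 35 of 76 with DESeq2 size factors. In articular-list wells 9 of 21 were higher, and 21 of 33 with those factors. Those factors moved the median difference of all genes to 0.26 in cartilage-list wells, against 0.43 with edgeR's scaling, and to -0.16 in articular-list wells, against -0.27.

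**Figure D2:**
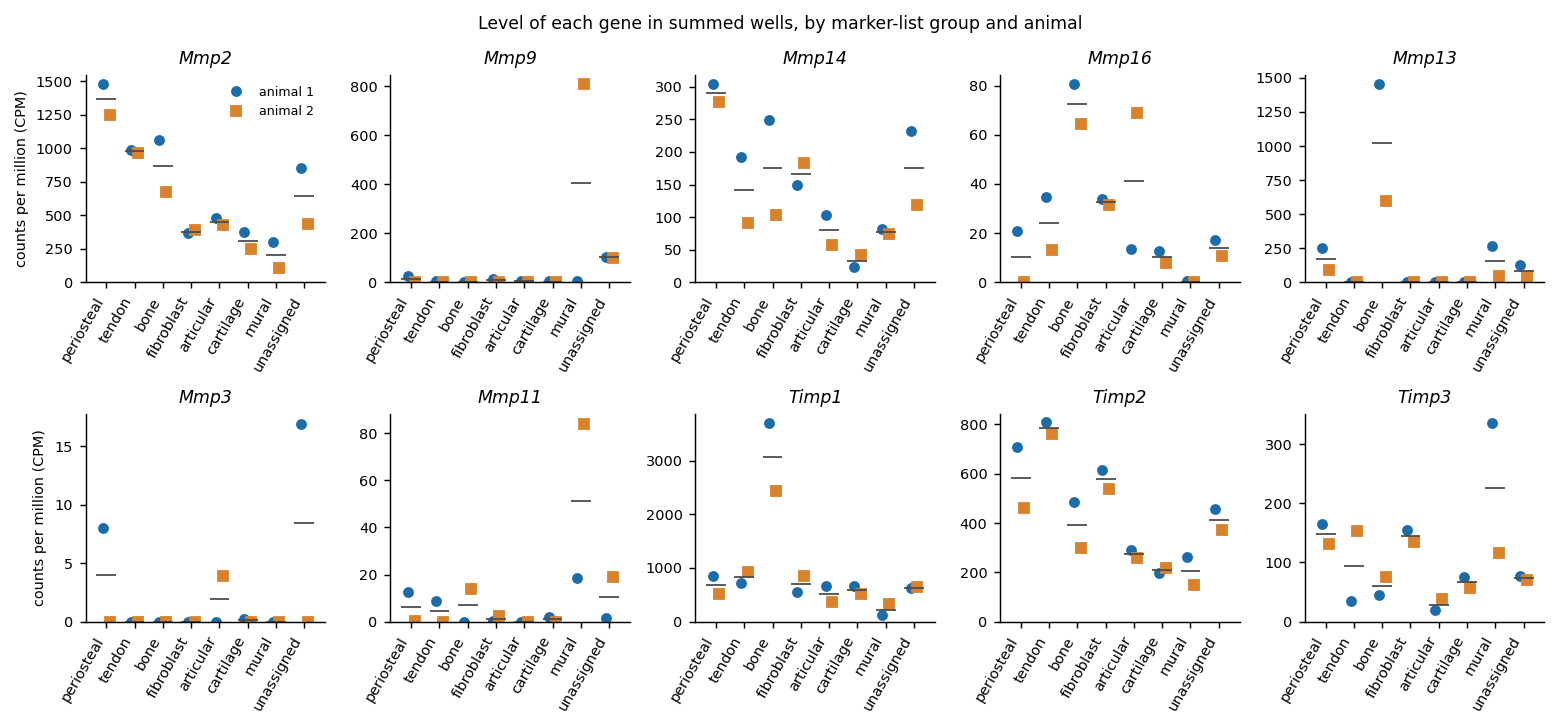
Level of each gene (CPM, linear axis, own scale per panel) in the summed wells of each marker-list group, with 1 point per animal and a bar at their mean. By the mean, Mmp2 and Mmp14 are highest in periosteal-list wells, Timp2 in tendon-list wells, and Mmp13, Mmp16 and Timp1 in bone-list wells.

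Mmp2, a gelatinase that cuts denatured collagen and basement membrane, was the most widely seen of the 7 metalloproteinases and was highest in periosteal-list wells. It stood at 1482 CPM in animal 1 and 1252 in animal 2 there. Tendon-list wells had 991 and 968 CPM and bone-list wells 1062 and 673, and these groups overlapped. Articular-list wells had 478 and 429 CPM, fibroblast-list wells 366 and 388, cartilage-list wells 374 and 249 and mural-list wells 302 and 106. The periosteal-list values lay above all of the others in both animals. Periosteal-list wells exceeded the mean of the other groups by 1.49 ± 0.14 on the log2 scale (standard error, adjusted p = 0.0317 in edgeR's quasi-likelihood test). Higher values stood in 7 of 7 plate quadrants with enough periosteal-list wells to compare. Such wells were in all 4 quadrants of each plate, and a quadrant with too few was left out. Quadrants of 1 plate hold wells of 1 animal and are not replicates. In each quadrant the comparison was with the pooled wells of the other tested groups, not with the mean of groups used in the test.

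Mmp2 was also seen in more of the periosteal-list wells than of the cartilage-list wells. The share was 85.1% (exact 95% interval 71.7% to 93.8%) and 79.2% (57.8% to 92.9%) in periosteal-list wells, against 55.1% (43.4% to 66.4%) and 48.4% (37.7% to 59.1%) in cartilage-list wells. Wells that showed it had a median of 1271 and 1340 CPM in the periosteal-list group, against 493 and 384 CPM in the cartilage-list group, so both the share and the level per well were higher. After thinning to 20000 counts, which left out 3 shallower wells of animal 1, 1 of them cartilage-list and 1 bone-list, 87.2% and 87.5% of periosteal-list wells still held at least 1 Mmp2 count, against 59.7% and 52.7% of cartilage-list wells. The difference in tendon-list wells was 1.03 ± 0.15 (adjusted p = 0.0678, higher in 8 of 8 quadrants), and that in cartilage-list wells -1.01 ± 0.17 (adjusted p = 0.0602, lower in 8 of 8). Fibroblast-list wells differed by -0.86 ± 0.17 (adjusted p = 0.0741). None of the 3 passed the threshold of 0.05. Genes that respond to tissue digestion (Fos, Jun, Egr1 and 6 others) had a median summed level of 2361 and 2437 CPM in periosteal-list wells, against 9010 and 11450 in cartilage-list wells and 14413 and 11685 in articular-list wells. Their part in these differences was not tested.

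Ctsk itself, the gene whose promoter drives the Cre, followed the same order as Mmp2 at the top and bottom of the tested groups. It had 481 and 522 CPM in periosteal-list wells, 427 and 407 in tendon-list wells, and 71.3 and 72.5 in cartilage-list wells. By a rule of closest Pearson correlation of log2 CPM over the 10 sums of animal and group, the 3 genes nearest to Mmp2 were Kalrn (r = 0.97), Sbk1 (0.96) and Ctsk (0.96). Kalrn and Sbk1 were seen in 10 and 7 wells, and Ctsk in 257. The 10 sums share their libraries and depth, and r is given as a description.

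Mmp9, the other gelatinase, was rare and concentrated in a few wells. It had 2856 counts in all, and 5 wells with 322 to 628 counts each held most of them. Of the 11 wells at 5 or more counts, 7 were unassigned, 2 periosteal-list, 1 fibroblast-list and 1 mural-list. A further 174 wells had 1 to 4 counts, spread over the groups and 14.9% to 43.1% of the wells of each quadrant. Cartilage-list wells, for example, had 36 and 15 counts in all and 0 wells at the limit. In these 11 wells the osteoclast markers Dcstamp, Ocstamp, Calcr and Atp6v0d2, the macrophage receptor Csf1r, the leukocyte marker Ptprc and the granule genes Elane and Mpo were each at 5 counts in 0 wells, while the osteoclast marker Acp5 was in 1, with 20 counts over the 11, and in 4.90% of all wells. The summed osteoclast list had a median of 6.09 CPM there, with a highest well at 76.8. Ctsk was seen in 5 of the 11 (39.4% of all wells) and Mmp13 in 5 (4.75%). Of the bone-list markers, Alpl, the phosphatase of mineralising cells, was in 4 (11.3%). Ibsp was in 3 (6.43%), Sp7 in 3 (7.81%) and Bglap in 0 (5.67%). The mural-list marker Acta2 was in 3 (8.73%) and Rgs5 in 1 (5.67%). Median summed levels in the 11 wells were 231 CPM for the bone list, 326 for the mural, 256 for the cartilage and 1970 for the periosteal list.

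Mmp14, the membrane-type protease that activates Mmp2, had its highest level in the same group as Mmp2. It had 305 and 277 CPM in periosteal-list wells. The values were 150 and 184 CPM in fibroblast-list, 249 and 103 in bone-list, 193 and 91.6 in tendon-list, 103 and 57.4 in articular-list, 81.0 and 73.7 in mural-list and 24.2 and 42.0 in cartilage-list wells. The periosteal-list values were above those of every other group, and the cartilage-list values below. From bone-list down to mural-list wells, each group overlapped with its neighbour. The difference was 1.69 ± 0.35 in periosteal-list wells (adjusted p = 0.231) and -2.02 ± 0.45 in cartilage-list wells (adjusted p = 0.143), neither past the threshold in edgeR. DESeq2 called both, at 1.68 and -2.18. Mmp14 was seen in 48.9% (exact 95% interval 34.1% to 63.9%) and 12 of 24 (29.1% to 70.9%) of periosteal-list wells, against 10.3% (4.53% to 19.2%) and 17.6% (10.4% to 27.0%) of cartilage-list wells. Its closest genes over the 10 sums were Lgals1 (r = 0.91), Lrrc15 (0.91) and Ttyh3 (0.90), seen in 617, 35 and 36 wells.

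Mmp16, a second membrane-type protease, was seen in 45 wells. In bone-list wells it had 80.5 CPM in animal 1, from 5 of 12 wells, and 64.2 CPM in animal 2, from 4 of 8 wells. Animal 2 of the articular-list group reached 68.8 CPM from 3 wells, against 13.6 CPM from 1 well in animal 1. Bone-list and articular-list values thus overlapped. The other groups lay at or below 34.7 CPM, and mural-list wells held 1 count in all. It was called in none of the 5 tested groups, with the smallest adjusted p at 0.775 in articular-list wells (1.59 ± 1.52). Its closest genes were Rnf14, Stag1 and Rtfdc1 (r = 0.94 to 0.95).

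Mmp13, the interstitial collagenase of mouse cartilage and bone, was seen in some groups and at 0 wells in others. It was seen in 31 wells, 22 of animal 1 and 9 of animal 2. Periosteal-list wells made up 16 of these, bone-list wells 4, mural-list wells 3 and unassigned wells 8. Tendon-list, fibroblast-list, articular-list and cartilage-list wells had 0 of 69, 0 of 85, 0 of 37 and 0 of 169. These shares hold for the groups as formed here. Over 10 alternatives that kept the 5 groups, the log2 difference of Mmp13 in tendon-list wells ran from -2.2 to 2.45. In fibroblast-list, articular-list and cartilage-list wells it stayed negative, and none of these differences was called. A share of 0 in the 78 and 91 cartilage-list wells allows up to 3.85% and 3.30% at 3 wells of the total, and the two-sided exact 95% interval reaches 4.62% and 3.97%. Shares were 27.7% (exact 95% interval 15.6% to 42.6%) and 12.5% (2.66% to 32.4%) of periosteal-list wells.

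**Figure D3:**
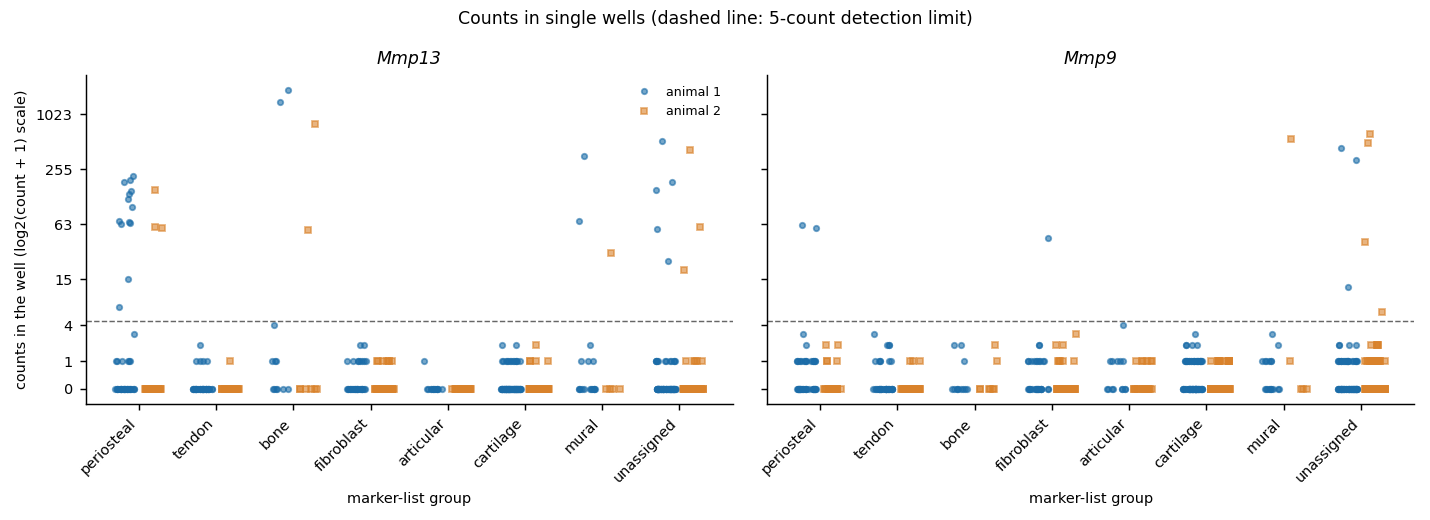
Counts of Mmp13 and Mmp9 in each well (log2(count + 1) axis, 1 point per well), by marker-list group and animal, with the 5-count limit dashed. Mmp13 wells above the limit are in the periosteal, bone, mural and unassigned columns, and the highest 2 hold 1922 and 1410 counts.

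Summed levels of Mmp13 were 253 CPM in animal 1 and 93.7 CPM in animal 2 of the periosteal-list group. The 4 other tested groups had 0.802 and 0 CPM (articular-list), 1.72 and 0.305 (tendon-list), 3.14 and 1.00 (fibroblast-list) and 1.72 and 0.475 (cartilage-list). Both periosteal-list values were far above all 8 of these. The difference was 7.62 ± 0.59 on the log2 scale (adjusted p = 0.0204 in edgeR's quasi-likelihood test). It was higher in 6 of the 7 quadrants with enough periosteal-list wells to compare. Since the other sums hold 0 to 17 counts, the fitted fold depends on the prior count and is not a bound. Counts of 1 to 4 occurred in 76 wells, 3.45% to 30.5% of the wells of a quadrant. The values in those 4 groups rest on such counts alone, and whether they are background was not tested. In animal 2 of the periosteal-list group 3 wells carried the value, and 1 of them held 56.4% of the counts. Among the tested groups, the well with most Mmp13 counts was a periosteal-list well of animal 1, with 214 counts or 15.4% of that sum. Without that well of animal 1 the difference was 7.53 ± 0.63 (adjusted p = 0.0325). The dominant well of animal 2 stayed in this fit, and the difference without that well alone was not tested.

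Bone-list wells held 53.7% of all Mmp13 counts and 4.80% of all counts. Their 1452 and 596 CPM came from 2 of 12 wells in animal 1, with 1922 and 1410 counts, and 2 of 8 in animal 2, of which 1 held 799 of 854 counts. The other bone-list wells had at most 4 counts. Among the 31 Mmp13 wells, Alpl was seen in 23, against 11.3% of all wells. Postn was seen in 24 (44.1% of all wells), Aspn in 22 (43.5%) and Ptn in 21 (40.4%). The osteoblast transcription factor Sp7 was seen in 11 (7.81%), osteocalcin (Bglap) in 9 (5.67%) and bone sialoprotein (Ibsp) in 7 (6.43%). Alpl, Postn, Aspn, Ptn, Sp7, Bglap and Ibsp are list markers used to form the groups. Of the cartilage genes, Col2a1 was seen in 28 (86.1% of all wells), Acan in 17 (36.9%) and Col10a1, the collagen of hypertrophic chondrocytes, in 0 (0.153%). Ctsk was seen in 24 (39.4%). The 3 genes nearest to Mmp13 over the 10 sums were Gm10544, Podnl1 and Gm14002 (r = 0.95 to 0.96), seen in 4, 15 and 3 wells.

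Mmp13 and Mmp9 met in 5 wells, 3 unassigned and 1 mural-list in animal 2 and 1 unassigned in animal 1. These had 628 and 417, 547 and 30, 492 and 19, 433 and 56, and 40 and 59 counts of Mmp9 and Mmp13. That is 5 of the 11 Mmp9 wells (45.5%) and 5 of the 31 Mmp13 wells (16.1%), where Mmp13 was seen in 4.75% of all wells. No test was made, since wells of 1 animal are not replicates.

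The stromelysins were close to absent. Mmp3, which cuts proteoglycans and activates other precursors, had 186 counts, 130 of them in 1 unassigned well, and was seen in 1 periosteal-list well with 44 and 1 articular-list well with 8. Its neighbours in the gene cluster on chromosome 9 were lower still, with 4 counts of Mmp8 and 1 each of Mmp12, Mmp20 and Mmp27, and Mmp13, at one end of the cluster, was the gene of it seen in most wells (31). Mmp11, which is cleaved inside the cell by furin, was seen in 11 wells with 13 to 126 counts, in all groups but the articular-list one. Mmp14 was seen in 10 of these 11 wells, against 31.9% of all wells. Mmp11 overlaps Chchd10 on the opposite strand, whose 491 counts lay in 8 wells. Neither Mmp3 nor Mmp11 was called in any tested group. The genes nearest to Mmp3 (Ano8, Dclre1c, Stil), to Mmp9 (Rhobtb1, Ahdc1, Pdgfrb) and to Mmp11 (Nle1, Sema3f, Gm4944) were seen in 2 to 78 wells.

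Timp2, the inhibitor that also helps Mmp14 to activate Mmp2, peaked in tendon-list wells. It had 810 and 763 CPM there. The values were 707 and 461 CPM in periosteal-list, 615 and 539 in fibroblast-list, 485 and 298 in bone-list, 290 and 256 in articular-list, 199 and 217 in cartilage-list and 264 and 147 in mural-list wells. Tendon-list values lay above all other groups, and periosteal-list and fibroblast-list values overlapped. The difference in tendon-list wells was 1.19 ± 0.16 (adjusted p = 0.0521) and that in cartilage-list wells -1.15 ± 0.18 (adjusted p = 0.0539), just outside the threshold. Both passed it when the well with most Timp2 counts was left out, at adjusted p = 0.0342 for the tendon-list difference and 0.0367 for the cartilage-list one. That well, with 574 counts, was a periosteal-list well of animal 1, so it belonged to the other groups in both comparisons. The differences without the top tendon-list or top cartilage-list well were not tested. Over 10 alternatives that kept the 5 groups, the tendon-list difference was called in 5 (adjusted p up to 0.364) and the cartilage-list one in 6 (up to 0.202), and the fit of all 7 groups gave 0.0465 and 0.28. Values were higher in 8 of 8 quadrants for the tendon-list wells and lower in 8 of 8 for the cartilage-list wells, where quadrants of 1 plate are not replicates. Timp2 was seen in 84.6% and 73.3% of tendon-list wells, against 57.7% and 46.2% of cartilage-list wells. Its closest genes were the cathepsin Ctsl (r = 0.97), Serpinf1 (0.97) and Prdx2 (0.96), seen in 428, 409 and 499 wells.

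Timp1, a secreted inhibitor that also binds the precursor of Mmp9, was called in none of the 5 tested groups. It had 725 and 933 CPM in tendon-list, 560 and 856 in fibroblast-list, 853 and 521 in periosteal-list, 655 and 506 in cartilage-list and 663 and 365 in articular-list wells, and each of these groups overlapped with the next. The lowest adjusted p was 0.474. Bone-list wells stood apart with 3694 and 2434 CPM, seen in 10 of 12 and 7 of 8 wells. Those wells were deeper, with medians of 163952 and 175777 counts, and Timp1 counts scaled to depth still had a Spearman correlation with depth of 0.25 and 0.31 over the wells of each animal. After thinning to 20000 counts, at least 1 Timp1 count was left in 11 of 11 and 8 of 8 bone-list wells, against 66.0% and 45.8% of periosteal-list and 70.1% and 57.1% of cartilage-list wells. Timp1 lies inside Syn1, a gene of the opposite strand that was seen in 4 wells. Its closest genes were Scai, Phf10 and Rpl31-ps18 (r = 0.90 to 0.94), and the last of these was seen in 0 wells.

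Timp3, the inhibitor that binds to the matrix itself, had its highest tested values in periosteal-list (165 and 131 CPM) and fibroblast-list wells (155 and 134 CPM), which overlapped. Articular-list wells were lowest at 19.3 and 38.2 CPM, from 1 of 14 and 4 of 23 wells. Tendon-list wells spread widely, with 35.02 CPM in animal 1 and 153 in animal 2. Mural-list wells had 335 and 116 CPM. The difference in articular-list wells was -2.11 ± 0.62 (adjusted p = 0.297), outside the threshold. Timp3 lies inside Syn3, on the opposite strand, which was seen in 5 wells. Its closest genes were Khdrbs1, Taf4a and Mta2 (r = 0.93 to 0.97).

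**Figure D4:**
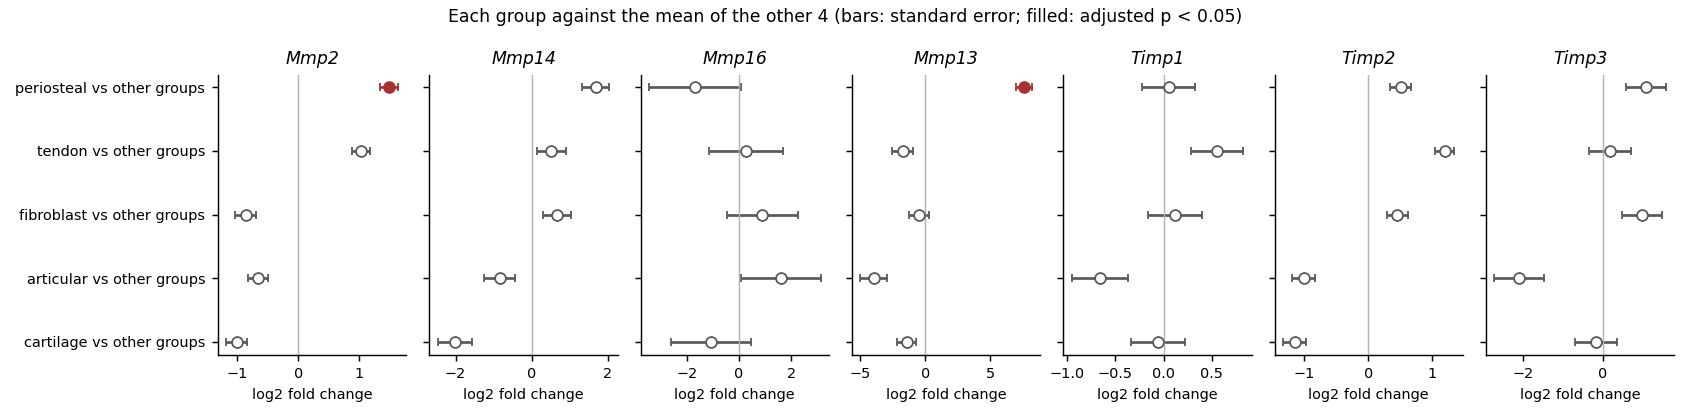
Log2 fold change of each group against the mean of the other 4 tested groups (points, with standard errors as bars) for the 7 genes seen in over 4% of wells. Filled points have an adjusted p under 0.05 in edgeR's quasi-likelihood test: Mmp2 (1.49) and Mmp13 (7.62) in periosteal-list wells.

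Over the 10 genes, the median log2 difference in periosteal-list wells was 1.44, against 0.13 for all genes tested. It was 0.39 against -0.0042 in tendon-list, 0.48 against 0.23 in fibroblast-list, -0.75 against -0.27 in articular-list and -1.06 against 0.43 in cartilage-list wells. These medians describe genes chosen with earlier results known, and rare members weigh in them as much as common ones.

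The 2 small groups outside that fit, bone-list and mural-list, were added in a fit of all 7 groups, chosen after the data were seen. In bone-list wells 2 of the 10 genes were called, both higher (0.406% of all genes in either direction, 0.281% higher), Mmp13 at 7.72 ± 0.33 (adjusted p = 6.02e-06 in edgeR's quasi-likelihood test) and Timp1 at 2.46 ± 0.30 (adjusted p = 0.00969). Without the well with most counts of each gene the values were 7.30 ± 0.43 and 2.30 ± 0.29, with adjusted p of 4.69e-05 and 0.0129. In mural-list wells 5 of the 10 were called, 2 with a positive and 3 with a negative difference (2.57% of all genes in either direction, 0.968% higher and 1.6% lower). Mmp2 (-2.05 ± 0.35, adjusted p = 0.0174), Timp1 (-2.34 ± 0.43, adjusted p = 0.024) and Timp2 (-1.44 ± 0.29, adjusted p = 0.0304) were lower. Mmp13 (3.81 ± 0.34, adjusted p = 0.00186) and Mmp9 (7.01 ± 1.42, adjusted p = 0.0326) had positive differences. The Mmp13 contrast averages logarithms over groups, 4 of which were near 0. In CPM with edgeR's scaling, the mean level was lower in mural-list wells, 129 ± 136 against 199 ± 122 in the other groups (SD, n = 2 animals). Without that scaling mural-list wells had 154 ± 155 CPM. The contrast rested on 3 wells at 5 or more counts, with 356 of 429 counts in 1 well of animal 1 and 30 of 30 in 1 well of animal 2. For Mmp9 the call rested on 1 well with 547 of the 548 counts of animal 2, and the difference was -0.40 ± 1.36 (adjusted p = 1) without it. In this fit the periosteal-list difference of Mmp13 was 4.79 ± 0.33 (adjusted p = 6.03e-04) and that of Mmp2 1.67 ± 0.26 (adjusted p = 0.0797), no longer past the threshold. With edgeR's scaling, the mean Mmp13 level was 183 ± 122 CPM in periosteal-list wells (173 ± 113 CPM without it) and 190 ± 125 CPM over the other 6 groups. Bone-list wells were far above, so this positive value too comes from averaging logarithms over groups near 0. This fit called 1 of 10 genes in periosteal-list wells (0.0156% of all), 2 in tendon-list (0.18%), 1 in articular-list (0.102%), 1 in cartilage-list (0.586%) and 0 in fibroblast-list wells (0.586%), where 2 had an unadjusted p under 0.05 (11.6% of all genes). The calls outside periosteal-list wells were Timp2 higher and Mmp13 lower in tendon-list wells, and Mmp13 lower in articular-list and cartilage-list wells. Without the well with most Mmp13 counts, which is in the bone list, those 3 calls of lower Mmp13 were lost, at adjusted p of 0.136, 0.0694 and 0.0649 for tendon-list, articular-list and cartilage-list wells.

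Members of the Mmp2 activation complex were found together most often in periosteal-list wells. Mmp2, Mmp14 and Timp2 were all seen in 23 of 47 (48.9%) and 11 of 24 (45.8%) of these wells, against 30.8% and 30.0% of tendon-list, 21.2% and 21.2% of fibroblast-list, 0 of 14 and 3 of 23 of articular-list and 5.13% and 5.49% of cartilage-list wells. Bone-list wells had 5 of 12 (41.7%) and 1 of 8 (12.5%), and mural-list wells 3 of 18 and 0 of 5. Inside the periosteal-list group Mmp14 was seen in 23 of 40 wells with Mmp2 in animal 1 and 12 of 19 in animal 2, against 0 of 7 and 0 of 5 wells without Mmp2. Timp2 was seen in 23 of 23 and 11 of 12 periosteal-list wells with Mmp14, against 15 of 24 and 5 of 12 without it. Inside the other tested groups these differences varied in sign. For Mmp14, wells with Mmp2 differed from those without by 14.8 and 40.9 percentage points in tendon-list and 17.9 and 8.33 in fibroblast-list wells. The values were 8.24 and -3.24 in cartilage-list and -28.6 and 33.3 in articular-list wells. For Timp2, by Mmp14, they were 16.7 and 0.595 in fibroblast-list and -70.0 and 15.6 in articular-list wells, and positive in tendon-list and cartilage-list wells. Over all wells, Mmp14 was seen in 42.9% and 36.9% of wells with Mmp2, against 20.4% and 16.7% of wells without it, a difference of 22.6 and 20.3 percentage points. With wells thinned to 20000 counts the difference was 15.045 and 14.208 points. That of Timp2 between wells with and without Mmp14 was 22.0 and 26.1 points, and 11.4 and 15.8 points after thinning. Both differences were thus smaller at equal depth, with the same sign in both animals. Spearman's rho of Mmp2 and Mmp14 over wells was 0.50 and 0.42 in the periosteal-list group and 0.34 and 0.56 in the tendon-list group, against 0.01 and 0.04 in the cartilage-list group. It was 0.26 and 0.21 in fibroblast-list wells and 0.49 in articular-list wells of animal 2, where animal 1 had too few wells. For Mmp2 and Timp2 it was 0.42 and 0.62 in tendon-list and 0.23 and 0.39 in periosteal-list wells, and -0.03 to 0.20 in fibroblast-list and cartilage-list wells. Each rho is a description over wells of 1 animal.

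**Figure D5:**
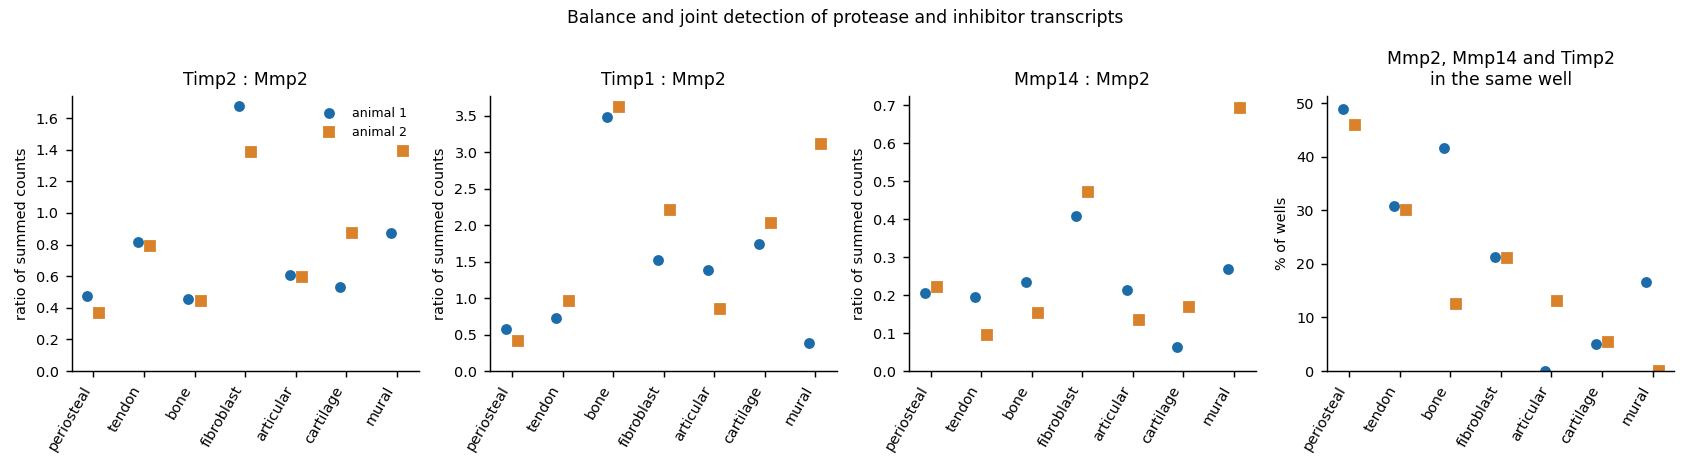
Ratios of summed counts (Timp2 to Mmp2, Timp1 to Mmp2, Mmp14 to Mmp2) and the share of wells with Mmp2, Mmp14 and Timp2 together, by marker-list group, 1 point per animal. The Timp2 to Mmp2 ratio is highest in fibroblast-list wells of animal 1 (1.68), and Timp1 to Mmp2 is highest in bone-list wells (3.48 and 3.62).

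Groups that shared high Mmp2 differed in some of their ratios of inhibitor to protease transcripts. The ratio is of counts not divided by length, so only its change between groups is read. Timp2 to Mmp2 was 0.42 ± 0.08 in periosteal-list wells (SD, n = 2 animals), 0.80 ± 0.02 in tendon-list and 0.45 ± 0.01 in bone-list wells. Fibroblast-list wells, with little Mmp2, had 1.53 ± 0.20, and cartilage-list wells spread with 0.53 in animal 1 and 0.87 in animal 2. Periosteal-list and tendon-list values did not overlap, 0.48 and 0.37 against 0.82 and 0.79. Bone-list values, 0.46 and 0.44, lay between those of the periosteal-list wells. With 2 animals in each group an exact permutation test cannot go below a two-sided p of 0.333, and none was run. Timp1 to Mmp2 was 3.55 ± 0.10 in bone-list wells and 0.50 ± 0.11 in periosteal-list wells. Mmp14 to Mmp2 was 0.21 ± 0.01 in periosteal-list wells and 0.44 ± 0.05 in fibroblast-list wells.

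Other genes of the pathway were taken from a list of 63 proteases, activators, inhibitors and surface partners, of which 47 could be tested. Of all genes tested, 0.144% were called in periosteal-list, 0.193% in tendon-list and 1.27% in fibroblast-list wells. The shares were 0.65% in cartilage-list and 0.168% in articular-list wells. In periosteal-list wells 1 was higher and 0 lower, Ctsk at 1.67 ± 0.17 (adjusted p = 0.0317 in edgeR's quasi-likelihood test). In tendon-list wells 2 were higher and 0 lower, Ctsk at 1.48 ± 0.17 and the lysosomal protease Ctsl at 1.28 ± 0.13, with adjusted p of 0.0354 and 0.0265. Fibroblast-list wells had 3 higher and 0 lower. These were the hyaluronan receptor Cd44 (3.64 ± 0.51, adjusted p = 0.0245), the caveolar protein Cav1 (2.36 ± 0.33, adjusted p = 0.0245) and Ctsl (0.84 ± 0.14, adjusted p = 0.0392). Cartilage-list wells had 0 higher and 2 lower, Ctsk (-1.65 ± 0.21, adjusted p = 0.0252) and Ctsl (-1.56 ± 0.16, adjusted p = 0.0142), and articular-list wells 0 in either direction. In articular-list wells 9 of the 47 had an unadjusted p under 0.05 (10.9% of all genes). DESeq2 called 5 there (7.16% of all genes with an adjusted p). The median log2 difference of the 47 was 0.26 in periosteal-list, 0.91 in tendon-list, 1.64 in fibroblast-list, -1.36 in articular-list and -0.66 in cartilage-list wells. The medians over all genes tested are those given for the 10 genes above. In the fit of all 7 groups Ctsk and Ctsl were called in 0 of the groups, and Cav1 lost its call in fibroblast-list wells (2.40 ± 0.63, adjusted p = 0.167). Cd44 was past the threshold there (3.27 ± 0.49, adjusted p = 0.0212) and was lower in cartilage-list wells (-5.27 ± 0.89, adjusted p = 0.0374). That fit called 0.586% of all genes in fibroblast-list, 0.586% in cartilage-list and 2.57% in mural-list wells. In mural-list wells Cav1 was higher (3.44 ± 0.61, adjusted p = 0.0199), and the proprotein convertase Pcsk6 was lower (adjusted p = 0.0444). With edgeR's scaling Pcsk6 was at 0 CPM there against 88.8 in the other groups.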

How the data were processed

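Per the labels' protocols, sorted single cells were reverse transcribed with template switching, amplified, pooled by barcode and sequenced. The authors deposited counts, whole numbers per gene and well, with no normalization. The submitters' processing notes name CASAVA and build mm10, with the counting tool, strand use and handling of molecular identifiers not given in the sources used here. The 10 genes, the marker lists and the pathway list were chosen with earlier results of these data known. Wells entered with 500 or more genes seen and mitochondrial counts of 20% or less, and the 5 others had 26.7% to 94.2% mitochondrial counts. Both plates use the same 95 barcodes, told apart by plate and 4 quadrants. No doublet caller was run on the single sorted wells. Each marker was standardised on the logarithm of its depth-scaled count plus 1 and limited to 3 standard deviations, each list averaged, and a well assigned to its best list when that led by 0.25. The 10 genes were not used for grouping.

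Counts were summed per animal and group and fitted with edgeR 4.0.16 (quasi-likelihood test, TMM scaling, limma 3.58.1, R 4.3.3) over 12463 genes with animal as a block, since wells of 1 plate come from 1 animal. With animal as a block, the p-values measure how far group differences vary between the 2 animals, with 4 residual degrees of freedom. The quasi-likelihood fit also draws on the spread of the other genes. Every adjusted p is by Benjamini-Hochberg over all genes tested, with a threshold of 0.05. On simulated data, in the 5 comparisons, 28 to 45 of 100 genes changed by 4 on the log2 scale were called, 9 to 16 of 100 changed by 2, and 0 to 6 of 12263 unchanged genes, so that a gene not called may still differ. Intervals for shares are exact binomial at 95%, and a share of 0 is limited at 3 wells of the total. Alternatives were DESeq2 1.42.0, its size factors, no block, no filter on low counts, stricter well filters, other leads, groups from clusters of the marker genes (leidenalg 0.10.2), wells thinned to 20000 counts, each gene's top well left out and each animal left out. The fits of all 7 groups and with no lead required were chosen after seeing the data. All 10 genes are named, with the 3 genes nearest to each by correlation and the pathway genes called. Tables and figures used Python 3.11.15, numpy 2.4.6, pandas 2.3.3, scipy 1.17.1 and matplotlib 3.10.9.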

Additional observations from a re-analysis of the deposited data

Results flagged for a closer look

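These values lie outside the main comparisons, in groups too small for them or in unassigned wells, and were above the limit that 3 counts allow. In bone-list wells Mmp13 had 1452 CPM in animal 1 and 596 CPM in animal 2, and Timp1 had 3694 and 2434 CPM. In mural-list wells Mmp11 had 18.4 CPM in animal 1 and 84.0 CPM in animal 2, from 1 well at 5 or more counts in each. In unassigned wells Mmp9 had 104 CPM in animal 1 and 100.5 CPM in animal 2, from 3 of 77 and 4 of 102 wells.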

How the results depend on the processing

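Animal is a block in the main test. With no replicate block, 2 of the 10 genes were called in cartilage-list wells and 1 in tendon-list wells, each 0 with the block. DESeq2 called 3 in cartilage-list, 1 in fibroblast-list, 2 in tendon-list and 2 in articular-list wells, and its size factors in edgeR gave 2 in cartilage-list and 2 in tendon-list wells. Thinned wells gave 3 in cartilage-list, 1 in fibroblast-list, 2 in tendon-list and 1 in articular-list wells. Groups from clusters gave 1 in cartilage-list wells. With no lead required the counts were 2 in cartilage-list, 1 in tendon-list and 1 in periosteal-list wells, and with a lead of 0.5, 1 in periosteal-list wells. The fit of all 7 groups gave 1, 2, 1 and 1 in cartilage-list, tendon-list, articular-list and periosteal-list wells. The cause of these changes was not tested. For no block, thinned wells, cluster groups and other leads, the share of all genes called is not given here. Those counts are therefore not read as results about the 10 genes. In periosteal-list wells, over 10 alternatives with a test that kept the 5 groups, Mmp13 was called in 8 (adjusted p up to 0.0914, with cluster groups) and Mmp2 in 9 (up to 0.344, with a lead of 0.5), and the fit of all 7 groups lost Mmp2. Without replicate 1 or 2 the differences were 1.44 and 1.55 for Mmp2 and 8.50 and 7.23 for Mmp13, with no residual degrees of freedom and so no test. Over all genes edgeR called 81 in cartilage-list, 158 in fibroblast-list, 24 in tendon-list, 21 in articular-list and 18 in periosteal-list wells, and DESeq2 359, 603, 389, 685 and 290. Of the 10 detection shares, 9 moved at a limit of 1 count, 3 at 10 counts and 9 after thinning. Depth and 2 animals limit what can be called: rare genes rest on single wells.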

Other observations

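Outside the 10 genes, Mmp23 was the most often seen metalloproteinase, in 178 of 653 wells (27.3%) with 12845 counts in all, which is more wells than Timp3 reached. Of the other family members in the table, Mmp19 and Mmp28 were seen in 5 wells each, Mmp15 in 3 and Mmp17 and the inhibitor Timp4 in 1 each. Mmp23 was singled out after its values were seen.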
